A study of Homo sapiens with 2 samples.

Results

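The receptor tyrosine kinases outside the insulin receptor family were examined in a genome-wide CRISPR/Cas9 knockout screen for genes whose loss lowers the EWSR1::FLI1 fusion protein of Ewing sarcoma. The members were 50 genes chosen by symbol from a fixed list. The rule used no measured value, but the list was made with earlier results of these data known. The members carried 197 of the 74336 distinct single guide RNAs (sgRNAs) and 50 of the 19112 genes in the count table. KIT, MUSK and ROR2 had 3 listed sgRNAs each, and each of the other members had 4. The cells were A673, an established Ewing sarcoma line, in which tdTomato had been fused to the endogenous EWSR1::FLI1 gene and which also carried Cas9 and EGFP as a control fluorophore. The reporter came from a single knock-in clone, so all values belong to that clone. Both populations were transduced with the Brunello knockout library at a multiplicity of infection of 0.3, kept in puromycin at 2 µg/ml for 12 days and left for 3 days without it. The unsorted population was sequenced as it stood, and the sorted population was the tdTomato-low EGFP-high fraction, which was expanded in culture before its DNA was taken. Enrichment in the sorted population is the readout of the screen for a guide that lowers the fusion signal and leaves the control signal high. Receptor expression in these cells was not analysed here.

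Receptor tyrosine kinases are single-pass membrane proteins. Binding of a ligand outside the cell brings receptor chains together, the kinase domains phosphorylate each other on tyrosine, and adaptor proteins dock on those tyrosines to start the RAS-MAPK, PI3K-AKT and phospholipase C pathways. Several members, among them ERBB3, PTK7, RYK, EPHA10 and EPHB6, are known as pseudokinases with little or no catalytic activity of their own. In Ewing sarcoma the insulin-like growth factor receptor has been the most studied receptor of this class, and KIT, PDGF, FGF and ROR1 receptors have also been studied.

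There was 1 library per population, so no difference below has a replicate check, and each test compares these libraries rather than the conditions. The unsorted library held 10483144 reads and the sorted library 1455322, which was 7.20 times fewer. An sgRNA was called enriched when the odds ratio of sorted over unsorted reads was at least 2 with an adjusted p under 0.05 by two-sided Fisher's exact test, Benjamini-Hochberg adjusted over all sgRNAs, and depleted when the odds ratio was at most 0.5 with the same limit on p. Reads carried no molecular identifiers, so intervals of odds ratios, bounds and p-values cover counting error only. Wilson intervals of shares treat sgRNAs as independent, although guides to 1 gene share their target, and cover no spread between cultures. For an sgRNA with 0 sorted reads a floor of 3 reads was used, which corresponds to 21.6 unsorted reads, and the difference is given as a lower bound.

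As a group, the receptors were called at about the rate of the whole library. Of the 197 sgRNAs, 40 were enriched, or 20.3% (Wilson 95% interval 15.3% to 26.5%), against 20.8% of all sgRNAs. A further 110, or 55.8% (48.9% to 62.6%), were depleted, against 51.7% of all sgRNAs, and 47 were neither. No sorted read was counted for 112 of them, or 56.9%, against 57.6% of all sgRNAs. At least 1 enriched sgRNA was found for 28 of the 50 genes (59.3% of all genes), at least 2 for 10 genes, or 20.0% (18.8% of all genes), and at least 3 for EPHA10 and EPHB3 alone (2.84% of all genes). No receptor had 4 enriched sgRNAs. That count of 0 of 50 allows a share of up to 6.0%, and the share over all genes was 0.157%. The median log2 ratio of library shares, with a pseudocount of 0.5 reads, was -3.17 over the receptor sgRNAs and -2.82 over all sgRNAs.

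**Figure D1:**
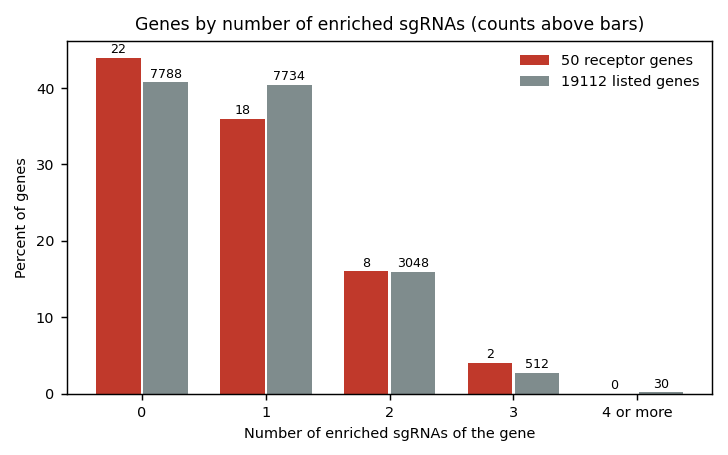
Percent of genes (vertical axis) by the number of enriched sgRNAs of the gene (horizontal axis) for the 50 receptor genes and for all 19112 genes, with the number of genes above each bar. The receptors divided into 22 genes with 0 enriched sgRNAs, 18 with 1, 8 with 2 and 2 with 3, in shares close to those of all genes.

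The guides of EPHA10 and EPHB3 that were enriched are shown because these were the receptors with the most enriched sgRNAs. Each is written 5′ to 3′, with the 12 bases next to the PAM, where a mismatch is least tolerated by Cas9, in capitals. The sgRNAs of a gene are numbered in the order of the count table.
EPHA10 sgRNA 1: cgagatccGATACTACGAGA
EPHA10 sgRNA 3: tttacaagGTGTCCCCGCGG
EPHA10 sgRNA 4: ccgcaaaaTCGACACGATCG
EPHB3 sgRNA 2: ttcacggcCGCATAACGAGG
EPHB3 sgRNA 3: ttggagatCACACCTCGGGG
EPHB3 sgRNA 4: agaggtgaGTGGCTACGATG

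EPHA10, a pseudokinase of the ephrin-A receptor class, had the highest median log2 ratio of the 50 receptors, 3.00, which was rank 47 of the 19112 genes. Its sgRNA 1 had 83 unsorted and 59 sorted reads (odds ratio 5.12, exact 95% interval 3.60 to 7.24, adjusted p = 1.32e-17 by Fisher's exact test). Its sgRNA 3 had 34 and 69 reads, the highest odds ratio of any receptor sgRNA, 14.6 (9.56 to 22.7, adjusted p = 8.91e-37 by Fisher's exact test). Its sgRNA 4 had only 5 unsorted and 9 sorted reads, with an odds ratio of 13.0 and a wide interval of 3.90 to 49.2 (adjusted p = 1.43e-05 by Fisher's exact test). The remaining sgRNA 2 went the other way, with 169 unsorted reads and 0 sorted reads, at least 7.82-fold lower. Without sgRNAs under 30 unsorted reads EPHA10 had 2 enriched sgRNAs.

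EPHA10 sgRNA 4 and EPHA8 sgRNA 2 are the most alike pair of guides among the receptors, and they are shown with the 3 positions at which they differ in capitals.
EPHA10 sgRNA 4: ccGcaaaatcgacacGatCg
EPHA8 sgRNA 2: ccTcaaaatcgacacCatTg
The EPHA8 guide had 36 unsorted and 3 sorted reads and was called neither enriched nor depleted. Reads were aligned to the guides with up to 3 mismatches and were kept only when they matched a single guide. Of all sgRNAs, 2270, or 3.05%, lay within 3 mismatches of another listed guide, and their median unsorted count was 6 reads, against 107 reads for the other 72066. Among the receptors 3 sgRNAs lay that close to another guide, the pair above and EPHB4 sgRNA 3, with 58 unsorted and 0 sorted reads. The part of this closeness in the low reads of EPHA10 sgRNA 4 was not tested.

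EPHB3, an ephrin-B receptor with an active kinase, had a median log2 ratio of 2.17, rank 202 of all genes. Its sgRNA 2 had 130 unsorted and 120 sorted reads (odds ratio 6.65, 5.14 to 8.59, adjusted p = 4.85e-42 by Fisher's exact test). Its sgRNA 3 had 104 and 120 reads (odds ratio 8.31, 6.34 to 10.9, adjusted p = 2.2e-48 by Fisher's exact test), and its sgRNA 4 had 117 and 49 reads (odds ratio 3.02, 2.12 to 4.25, adjusted p = 8.69e-09 by Fisher's exact test). These 3 guides each had more than 100 unsorted reads, and all 3 stayed enriched under a Bonferroni adjustment, but 0 of them under the negative binomial test described at the end. The remaining sgRNA 1 had 32 unsorted reads and 0 sorted reads, at least 1.48-fold lower.

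**Figure D2:**
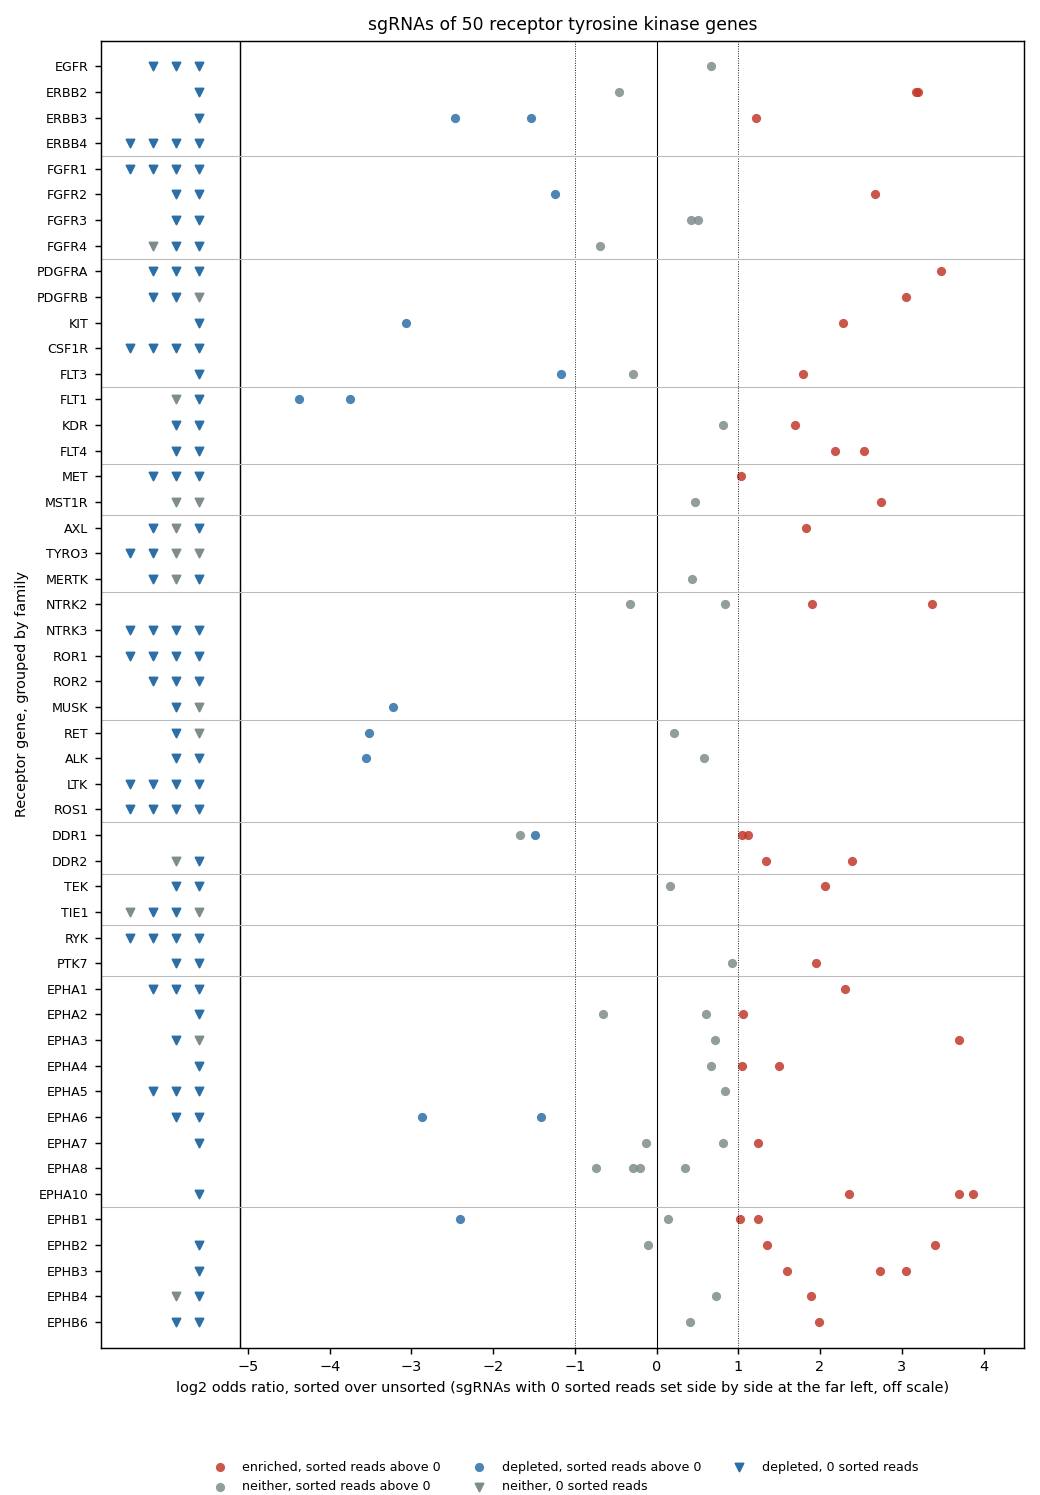
Log2 odds ratio of sorted over unsorted reads (horizontal axis) for each of the 197 sgRNAs, with the 50 receptor genes by family on the vertical axis. Circles are sgRNAs with sorted reads, triangles at the far left are sgRNAs with 0 sorted reads and have no scale, and dotted lines mark odds ratios of 0.5 and 2. Most genes hold sgRNAs on both sides, as in EPHA10 with 3 enriched guides and 1 guide absent from the sorted library.

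The ephrin-B receptors had the highest enriched share of the families with more than 8 sgRNAs. EPHB2 and EPHB1, both active kinases, had 2 enriched sgRNAs each and median log2 ratios of 0.64 and 0.59. EPHB2 sgRNA 2 had 62 unsorted and 91 sorted reads (odds ratio 10.6, 7.57 to 14.8, adjusted p = 6.32e-42 by Fisher's exact test), and its sgRNA 1 had 158 and 56 reads (odds ratio 2.55). Its sgRNA 3 was absent from the sorted library against 204 unsorted reads, at least 9.44-fold lower, and its sgRNA 4 had an odds ratio of 0.929. EPHB1 was enriched with sgRNA 1, 228 against 75 reads (odds ratio 2.37), and with sgRNA 2, 560 against 158 reads (odds ratio 2.03, 1.69 to 2.43, adjusted p = 1.1e-12 by Fisher's exact test). Its sgRNA 3 was depleted, with 191 and 5 reads, and its sgRNA 4 was close to even, with 183 and 28 reads. EPHB4, the ephrin-B2 receptor of developing veins, and EPHB6, a pseudokinase, had 1 enriched sgRNA each, with odds ratios of 3.72 and 3.97. All 5 ephrin-B receptors thus had at least 1 enriched sgRNA, as did 59.3% of all genes. Of the 20 ephrin-B sgRNAs, 9 were enriched, or 45.0% (Wilson 25.8% to 65.8%), against 20.8% of all sgRNAs. Under the negative binomial test 1 of the 20 was enriched, or 5.0%, against 3.57% of all sgRNAs.

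Of the 36 ephrin-A receptor sgRNAs, 9 were enriched, or 25.0%, against 20.8% of all sgRNAs. Under a Bonferroni adjustment the share was 11.1%, against 17.0% of all sgRNAs. Under the negative binomial test it was 8.33%, against 3.57% of all sgRNAs. EPHA4, which binds ephrins of both classes, had a median log2 ratio of 0.88. Its sgRNA 2 had 82 unsorted and 32 sorted reads (odds ratio 2.81) and its sgRNA 3 had 164 and 47 reads (odds ratio 2.06), while sgRNA 1 had 68 and 15 reads and was not called and sgRNA 4 had 81 and 0 reads. Its 2 enriched guides became 0 under the Bonferroni adjustment and 0 under the negative binomial test. EPHA2, a receptor often abundant in tumour cells, was nearly even, with a median log2 ratio of -0.01. It had 204 unsorted and 43 sorted reads for sgRNA 1, 284 and 25 for sgRNA 2, 228 and 66 for sgRNA 3 and 35 and 0 for sgRNA 4, of which only sgRNA 3 was enriched (odds ratio 2.09, 1.56 to 2.75, adjusted p = 2.49e-06 by Fisher's exact test). EPHA1, EPHA3 and EPHA7 had 1 enriched sgRNA each. That of EPHA3 rested on 5 unsorted and 9 sorted reads, and that of EPHA1 on 127 and 87 reads (odds ratio 4.93). EPHA5, EPHA6 and EPHA8 had none. All 4 sgRNAs of EPHA6 were depleted, among them sgRNA 1 with 528 unsorted and 10 sorted reads and sgRNA 4 with 635 and 33 reads. All 4 sgRNAs of EPHA8 were called neither way, with odds ratios from 0.600 to 1.27.

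Together, 18 of the 56 ephrin receptor sgRNAs were enriched, or 32.1% (Wilson 21.4% to 45.2%), and 20, or 35.7% (24.5% to 48.8%), had 0 sorted reads. In the other 36 receptors 22 of 141 sgRNAs were enriched, or 15.6% (10.5% to 22.5%), and 92, or 65.2% (57.1% to 72.6%), had 0 sorted reads. This grouping was made with results of these data known, and guides to 1 gene share their target, so the difference is given without a test. Over all sgRNAs, 20.8% were enriched and 57.6% had 0 sorted reads. None of the 14 ephrin receptors was wholly absent from the sorted library, against 11 of the other 36 receptors and 14.6% of all genes.

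**Figure D3:**
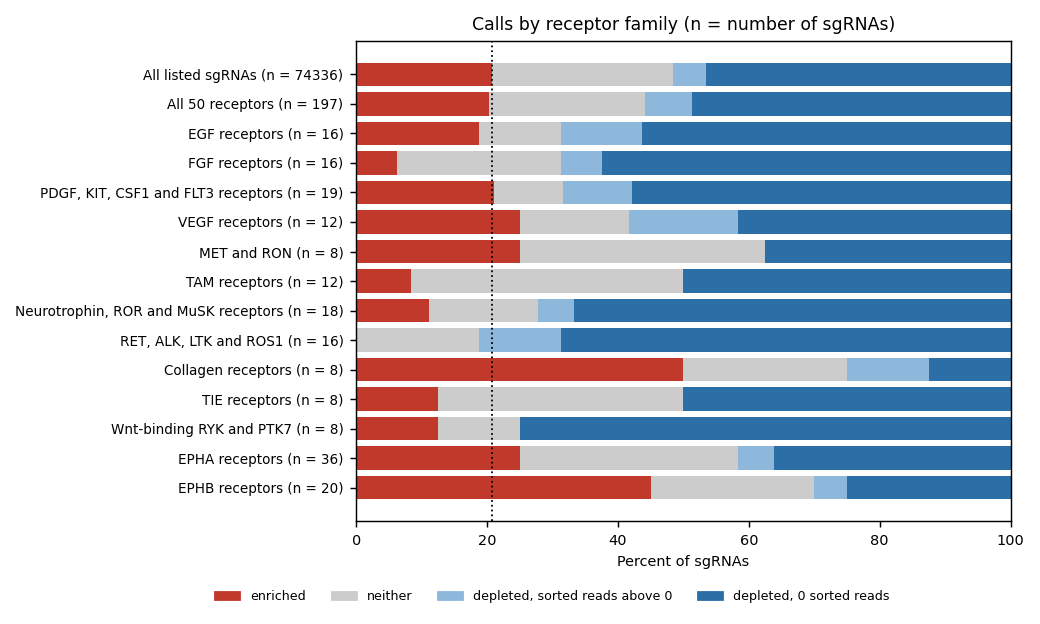
Percent of sgRNAs (horizontal axis) called enriched, neither, depleted with sorted reads or depleted with 0 sorted reads, for each receptor family and for all sgRNAs, with the number of sgRNAs beside each name. The dotted line is the enriched share of all sgRNAs, 20.8%, and the collagen receptors (50.0% of 8 sgRNAs) and ephrin-B receptors (45.0% of 20) reach farthest past it. Under a Bonferroni adjustment these shares were 25.0% and 45.0% (17.0% of all sgRNAs). Under the negative binomial test they were 0% and 5.0% (3.57% of all sgRNAs).

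Among the epidermal growth factor receptors, the values of ERBB2 and EGFR lay far apart. ERBB2, which has no ligand of its own and acts as the partner of the other family members, had a median log2 ratio of 1.37, rank 782. Its sgRNA 2 had 52 unsorted and 65 sorted reads (odds ratio 9.00, 6.16 to 13.2, adjusted p = 6.56e-28 by Fisher's exact test), and its sgRNA 4 had 44 and 56 reads (odds ratio 9.17, 6.07 to 13.9, adjusted p = 1.96e-24 by Fisher's exact test). Its sgRNA 1 was not called, with 247 and 25 reads, and its sgRNA 3 was absent from the sorted library against 284 unsorted reads, at least 13.1-fold lower. EGFR, the receptor of EGF and TGF-alpha, had a median of -5.42, rank 18518 of 19112. Its sgRNAs 2, 3 and 4 had 130, 181 and 558 unsorted reads and 0 sorted reads, at least 6.02-fold, 8.38-fold and 25.8-fold lower. Its sgRNA 1 had 290 and 64 reads, with an odds ratio of 1.59 (1.19 to 2.09) that was under the limit of 2. ERBB3, the neuregulin-binding pseudokinase, had 1 enriched sgRNA, with 127 and 41 reads (odds ratio 2.33), and 3 depleted ones. All 4 sgRNAs of ERBB4, the other neuregulin receptor, had 0 sorted reads against 102, 71, 36 and 60 unsorted reads.

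NTRK2 and NTRK3, the TrkB and TrkC receptors of neurotrophins, stood at opposite ends of the list. NTRK2 had a median log2 ratio of 1.38, rank 761. Its sgRNA 1 had 82 unsorted and 118 sorted reads (odds ratio 10.4, 7.75 to 13.9, adjusted p = 1.43e-53 by Fisher's exact test), the lowest p of any receptor sgRNA, and its sgRNA 4 had 104 and 54 reads (odds ratio 3.74). Its sgRNA 2 had 144 and 16 reads and its sgRNA 3 had 125 and 31 reads, and neither was called. No sgRNA of NTRK2 was absent from the sorted library. NTRK3 had the lowest median of the 50 receptors, -5.77, rank 18879. Its sgRNAs had 448, 43, 109 and 351 unsorted reads and 0 sorted reads, at least 20.7-fold, 1.99-fold, 5.04-fold and 16.2-fold lower.

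ROR1 and ROR2, which bind WNT5A, were absent from the sorted library with every listed sgRNA. ROR1 had 155, 96, 63 and 71 unsorted reads, and the bounds ran from 2.92-fold to 7.17-fold lower. The 3 sgRNAs of ROR2 had 34, 32 and 74 unsorted reads. MUSK, the agrin-responsive kinase of the neuromuscular junction, had 3 sorted reads in all, from an sgRNA with 203 unsorted reads.

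Both collagen receptors had 2 enriched sgRNAs, but under a Bonferroni adjustment DDR1 had 0 and DDR2 kept 2, so the share of this family went from 50.0% to 25.0%. Under the negative binomial test neither had any. DDR1 was enriched with sgRNA 2, 166 unsorted and 50 sorted reads (odds ratio 2.17, 1.55 to 2.99), and sgRNA 4, 129 and 37 reads (odds ratio 2.07, 1.39 to 3.00), both near the limit of 2. Its sgRNA 1, the most abundant receptor guide in the unsorted library, was depleted, with 766 and 38 reads (odds ratio 0.357), and its sgRNA 3 had 46 and 2 reads. DDR2 was enriched with sgRNA 1, 351 and 123 reads (odds ratio 2.52), and sgRNA 4, 37 and 27 reads (odds ratio 5.26, 3.08 to 8.87, adjusted p = 5.91e-09 by Fisher's exact test). Its sgRNAs 2 and 3 had 94 and 27 unsorted reads and 0 sorted reads.

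The receptors of blood and lymph vessels gave mixed values. FLT4, the lymphatic VEGF-C receptor, had 2 enriched sgRNAs, with 52 unsorted and 42 sorted reads (odds ratio 5.82, 3.78 to 8.91, adjusted p = 3.33e-14 by Fisher's exact test) and with 136 and 86 reads (odds ratio 4.56, 3.44 to 6.01, adjusted p = 1.19e-22 by Fisher's exact test). Its other guides had 74 and 69 unsorted reads and 0 sorted reads. KDR, the main VEGF-A receptor of endothelium, had 1 enriched sgRNA, with 205 and 92 reads (odds ratio 3.23), and FLT1, a high-affinity VEGF-A receptor, had none. TEK, the angiopoietin receptor, had 1 enriched sgRNA, with 85 and 49 reads (odds ratio 4.15). All 4 sgRNAs of its partner TIE1 had 0 sorted reads, but they had only 6, 83, 61 and 3 unsorted reads.

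In the class of PDGF, KIT, CSF1 and FLT3 receptors, 4 of the 5 genes had exactly 1 enriched sgRNA, as did 7734 of all 19112 genes. The class had 4 of 19 sgRNAs enriched, or 21.1%, close to the 20.8% of all sgRNAs. PDGFRA had 46 unsorted and 71 sorted reads for sgRNA 1 (odds ratio 11.1, 7.57 to 16.5, adjusted p = 9.96e-34 by Fisher's exact test). Its other 3 guides had 47, 48 and 278 unsorted reads and 0 sorted reads, the last at least 12.9-fold lower. KIT, the stem cell factor receptor, had 121 and 2 reads for sgRNA 1, 80 and 54 reads for sgRNA 2 and 254 and 0 reads for sgRNA 3. Only KIT sgRNA 2 was enriched (odds ratio 4.86, 3.38 to 6.95, adjusted p = 1.44e-15 by Fisher's exact test), and the other guides were depleted. PDGFRB and FLT3 were enriched with odds ratios of 8.29 and 3.47, and CSF1R, the receptor of macrophage colony-stimulating factor, had 0 sorted reads for all 4 sgRNAs against 78, 226, 48 and 38 unsorted reads.

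The FGF receptors had 1 enriched sgRNA of 16, or 6.25%, against 20.8% of all sgRNAs. It was FGFR2 sgRNA 4, with 97 unsorted and 86 sorted reads (odds ratio 6.39, 4.72 to 8.63, adjusted p = 1.27e-29 by Fisher's exact test), while the other guides of FGFR2 were depleted. FGFR1 had 99, 95, 118 and 32 unsorted reads and 0 sorted reads, with bounds of 4.58-fold, 4.40-fold, 5.46-fold and 1.48-fold lower, and a median log2 ratio of -4.76. FGFR3 and FGFR4 had sorted reads for 2 and 1 of their guides, and none was enriched.

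MET, the hepatocyte growth factor receptor, had 134 unsorted and 38 sorted reads for sgRNA 1 (odds ratio 2.04, 1.39 to 2.95, adjusted p = 0.000442 by Fisher's exact test). Its other guides had 240, 139 and 43 unsorted reads and 0 sorted reads. MST1R, the related RON receptor, had 1 enriched sgRNA, with 30 and 28 reads (odds ratio 6.72). AXL, the GAS6 receptor, had 262, 28, 168 and 140 unsorted reads, and only its sgRNA 4 had sorted reads, 69 (odds ratio 3.55, 2.62 to 4.77, adjusted p = 2.02e-14 by Fisher's exact test). The other TAM receptors, TYRO3 and MERTK, had no enriched sgRNA, and TYRO3 had 26, 14, 205 and 60 unsorted reads and 0 sorted reads.

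RET, ALK, LTK and ROS1, best known as kinases that are fused or mutated in other tumours, had 0 enriched of 16 sgRNAs (20.8% of all sgRNAs). The Wilson upper limit of 19.4% treats these guides to 4 genes as independent. Of the 16 sgRNAs, 13 were depleted, or 81.25% (51.7% of all sgRNAs). All 4 sgRNAs of ROS1 had 0 sorted reads against 70, 147, 117 and 125 unsorted reads, at least 3.24-fold, 6.80-fold, 5.41-fold and 5.78-fold lower. The same held for LTK, with 52, 56, 97 and 225 unsorted reads. RET and ALK each had 2 guides with sorted reads. RYK, a Wnt co-receptor, had 98, 282, 153 and 138 unsorted reads and 0 sorted reads, at least 4.53-fold, 13.0-fold, 7.08-fold and 6.39-fold lower. PTK7, another Wnt-pathway pseudokinase, had 1 enriched sgRNA, with 168 and 90 reads (odds ratio 3.86). The 5 members named above as pseudokinases had 6 enriched of 20 sgRNAs, or 30.0% (Wilson 14.5% to 51.9%), and 3 of these were guides of EPHA10. The other 45 members, which may include further pseudokinases, had 34 of 177, or 19.2%, and the share over all sgRNAs was 20.8%. Whether kinase activity has a part in this was not tested.

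Every listed sgRNA had 0 sorted reads for 11 receptors, which were NTRK3, RYK, ROS1, FGFR1, ROR1, LTK, ERBB4, CSF1R, TYRO3, ROR2 and TIE1. That was 22.0% of the receptors, against 14.6% of all genes. At the other extreme no receptor had all of its guides enriched. In 25 of the 50 receptors, or 50.0%, at least 1 sgRNA was enriched and at least 1 other had 0 sorted reads, and this held for 55.2% of all genes. Enriched guides and guides without sorted reads therefore often fell in the same receptor, as they did in other genes.

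**Figure D4:**
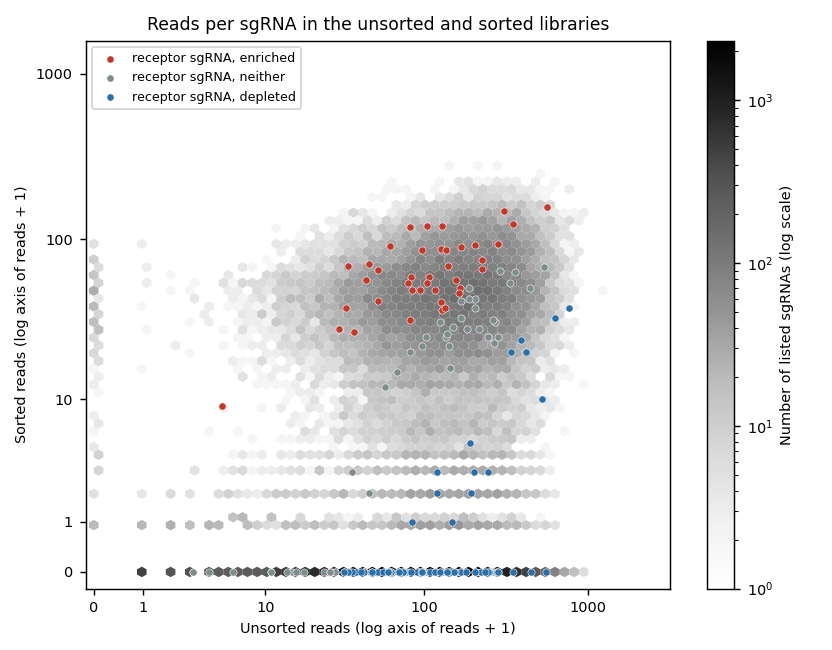
Unsorted reads (horizontal axis) and sorted reads (vertical axis) of each sgRNA, both on a log axis of reads + 1, with all listed sgRNAs as shading and the 197 receptor sgRNAs as points by call. Depleted receptor guides lie mostly on the line of 0 sorted reads at any unsorted count, and 3 sgRNAs of the whole library lie beyond the axes.

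The number of unsorted reads moved with the calls. The receptor sgRNAs had a median of 104 unsorted reads (range 3 to 766), against 103 over all sgRNAs, and a median GC content of 50% (range 25% to 75%). No sorted reads were counted for 16 of the 18 receptor sgRNAs under 30 unsorted reads, or 88.9%, and the share was 70.1% at 30 to 99 reads, 39.6% at 100 to 199 and 42.9% at 200 or more. Over all sgRNAs the share without sorted reads was 76.9%, 65.5%, 52.4% and 41.1% in these classes. The enriched share in these classes was 11.1%, 20.8%, 28.3% and 14.3%. Over all sgRNAs it was 17.5%, 26.7%, 24.1% and 10.8%. Enriched receptor guides had a median of 105.5 unsorted reads and depleted ones 100.5. Where sorted reads were present, their median was 38 for the receptors and 40 for all sgRNAs.

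The ligands and co-receptors of these receptors were called at a like rate, with 55 of 294 sgRNAs enriched, or 18.7%, against 20.8% of all sgRNAs. At least 2 enriched sgRNAs were found for 12 of 76 genes, or 15.8%, against 18.8% of all genes. Of the 8 ephrins, the membrane-bound ligands of the ephrin receptors, only EFNB1 had 2 or more. EFNB1, a ligand of EPHB receptors, had 62, 70, 95 and 66 unsorted reads and 57, 46, 76 and 0 sorted reads, so that 3 of its guides were enriched with odds ratios of 6.62, 4.73 and 5.76. Its median log2 ratio was 2.39, rank 132. The ephrins as a list had 4 enriched of 31 sgRNAs, or 12.9%. The ligands of the EGF receptors had 7 of 42 (16.7%) and the FGF ligands and klotho co-receptors 15 of 73 (20.5%). The ligands of the PDGF, KIT, CSF1, FLT3 and VEGF receptors had 13 of 52 (25.0%). The remaining ligands and co-receptors had 16 of 96 (16.7%).

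Of the proteins that act directly behind the receptors, the adaptors and proximal effectors had 24 of 117 sgRNAs enriched, or 20.5%. In this list 7 of 30 genes had at least 2, or 23.3%, against 18.8% of all genes. CRKL, an SH2 and SH3 adaptor, was the gene of this list with 3, at 36, 201 and 50 unsorted and 48, 67 and 43 sorted reads, and its remaining guide had 134 and 0 reads. The negative regulators of receptor signalling had 18 of 82, or 22.0%, and 3 of 21 genes with at least 2, or 14.3%. The 3 insulin family receptors, which are no members here, had 1 enriched of 12 sgRNAs. The 32 non-receptor tyrosine kinases had 32 of 128, or 25.0%, and 8 of these genes, or 25.0%, had at least 2 enriched sgRNAs.

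Fisher's exact test treats reads as independent and allows for no spread between cultures. Under a negative binomial test whose dispersion, 1.38, was set on 1457 sgRNAs of olfactory receptor genes, 7 receptor sgRNAs were enriched (3.57% of all sgRNAs), and EPHA10 was the only receptor with at least 2 (0.889% of all genes), its sgRNAs 3 and 4. The call of sgRNA 4 rested on 5 unsorted and 9 sorted reads (adjusted p = 0.0465 by the negative binomial test). That test takes the unsorted count as exact, so it allows for no error in a count of 5 reads.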

How the data were processed

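Genomic DNA of the unsorted and sorted populations (20 µg each) was amplified in 24 reactions of 20 cycles and a second PCR of 15 cycles before sequencing. The deposited values are raw read counts per sgRNA, made by the authors by aligning reads to the guide sequences with Bowtie 1.2.2, allowing 3 mismatches and dropping reads that matched more than 1 guide. The labels name no genome build, so guide coordinates are not given. The same table also holds odds ratios and p-values of the authors' own comparison, which were not used.

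The table had 74339 rows, of which 3 repeated an sgRNA and were dropped. Library totals were the deposited ones, 10483144 and 1455322 reads, and equal the sums of the counts. Two-sided Fisher's exact tests with Benjamini-Hochberg adjustment over all 74336 sgRNAs were run in Python 3.11.15 with numpy 2.4.6, pandas 2.3.3 and scipy 1.17.1, and figures were drawn with matplotlib 3.10.9. The tests were checked on simulated counts with Poisson spread only, so the check does not cover spread beyond counting error in these libraries. Odds ratio intervals are exact 95% conditional intervals, and those of shares are Wilson intervals.

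Every member was counted. Reads per sgRNA were given for members with at least 2 enriched sgRNAs or with none in the sorted library, for the 5 highest and 5 lowest by median log2 ratio, and for EGFR, ERBB2, FGFR1, PDGFRA, KIT, MET, AXL, ROR1 and EPHA2, with other values as ranges or examples. Genes outside the members were named when at least 3 sgRNAs were enriched. Some results under this rule are not reported here. Sequences were given for the enriched sgRNAs of the receptors with the most of them and for the most alike pair of guides. The members and all lists were chosen with earlier results of these data known. The alternatives were another limit on the odds ratio, at least 30 unsorted reads, at least 100 unsorted reads for the share with 0 sorted reads, a pseudocount of 5, scaling on olfactory receptor sgRNAs, thinning of the unsorted library, reads summed per gene, a Bonferroni adjustment and a negative binomial test. Leaving out sgRNAs within 3 mismatches of another listed sgRNA was added after the data were seen.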

Additional observations from a re-analysis of the deposited data

How the results depend on the processing

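Of the 40 enriched receptor sgRNAs, 7 were called by the negative binomial test, whose dispersion cannot be checked against replicates, and receptors with at least 2 enriched sgRNAs went from 10 to 1 under it. Under the other alternatives the counts were 31 to 48 sgRNAs and 8 to 15 genes. Receptors with at least 3 enriched sgRNAs, 2 in the report, numbered 1 with at least 30 unsorted reads, 1 under the Bonferroni adjustment, 1 without the sgRNAs within 3 mismatches of another and 0 under the negative binomial test, and 3 with the odds ratio limit at 1 and 3 with the unsorted library thinned, where NTRK2 had 3 as well. Over all genes the shares with at least 3 under these alternatives were 2.10%, 1.55%, 2.81%, 0.0209%, 5.25% and 2.88%, in the same order. EPHB3 had 3 under all of these alternatives except the negative binomial test. No receptor had 4 under any alternative. Depleted sgRNAs went from 110 to 48 under the Bonferroni adjustment (23.5% of all sgRNAs) and to 0 under the negative binomial test. That test called 0 of all 74336 sgRNAs depleted. At its dispersion, 0 sorted reads could not give p under 0.05 at the unsorted count of any receptor sgRNA. The receptor count of 0 was therefore fixed in advance and does not bear on depletion. The share of receptor sgRNAs with 0 sorted reads was 41.2% among those with at least 100 unsorted reads, against 56.9%. A pseudocount of 5 reads moved the median log2 ratio of the sgRNAs from -3.17 to -0.42 and the median of gene medians from -2.74 to -0.53, and summing reads per gene gave -0.26 for the receptors and -0.16 for all genes, so the size of these negative medians rests on the guides with 0 sorted reads. No paired analysis was possible because each population had 1 library. The sorted library is 7.20 times shallower, and no sgRNA of the library under 31 unsorted reads was called depleted.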
